A study of Mus musculus with 12 samples.

Results

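Primary mouse embryonic fibroblasts labelled Recql knockout (KO) were compared with wild type (WT) fibroblasts across all genes that passed a filter on low counts. The comparison takes 6 of the 12 RNA sequencing libraries of the study, 3 per genotype, and 14876 of the 24054 genes in the deposited table. WT cells are given as carrying both Recql and Blm. The libraries labelled Recql KO are given as Recql -/- cells, and the reference groups used further on were Blm KO (Blm -/-) and double KO (Blm -/- Recql -/-), again with 3 libraries each. The study asked which transcripts differ from WT in each genotype. All cells were grown alike, in 3% O2, 5% CO2 and 10% serum, and polyadenylated RNA was sequenced. The age and sex of the embryos, the part of Recql that was targeted and whether each library came from its own embryo are not given in the labels. The p-values therefore rest on the spread among these libraries alone, which may be in part technical.

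Recql encodes RECQL1, a DNA helicase of the RecQ family that unwinds and anneals DNA at replication forks. BLM, the helicase lost in Bloom syndrome, and WRN, lost in Werner syndrome, belong to the same family. Mouse embryonic fibroblasts are mixed connective tissue cells taken from whole embryos, which make collagen-rich matrix and still hold traces of the cartilage, limb and body wall from which they came.

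Library totals ranged from 47758552 to 59296354 expected counts. Levels are given in CPM, counts scaled to a common library total, on which 3 counts corresponded to 0.0508 to 0.0614. The targeted gene was examined first. Recql (chromosome 6, 142350342 to 142387087 on mm10) stood at 25.7, 28.1 and 29.3 CPM in the WT libraries and 21.7, 24.3 and 29.8 CPM in those labelled Recql KO. The groups overlapped and the difference did not pass the test (log2 fold change -0.13 ± 0.20 SE, edgeR adjusted p = 0.642). The double KO libraries, which also bear the Recql label, stood at 18.7, 35.6 and 24.7 CPM and those of Blm KO at 21.3, 24.1 and 21.9 CPM, and double KO did not pass the test against WT either (edgeR adjusted p = 0.928). The counts thus do not show the loss of Recql, and gene-level counts cannot reveal an allele whose transcript persists, so the genotype of these libraries is known from their label alone. The directions below are those of the libraries labelled Recql KO. Blm stood at 21.9, 21.7 and 18.6 CPM in WT and 14.3, 16.4 and 16.1 CPM in the libraries labelled Recql KO, a difference that did not pass either (edgeR adjusted p = 0.197).

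Libraries of the label differed in sex-linked transcripts. The sum over 4 Y-linked genes (Ddx3y, Eif2s3y, Kdm5d, Uty) was 229.5 to 256.7 CPM in WT but 282.8, 28.73 and 0.676 CPM in the 3 libraries labelled Recql KO, and Xist stood at 0.111, 309.6 and 455 CPM in the latter. Both Xist and Y-linked transcripts were thus present in replicate 2 of the label. In bulk RNA fewer cells of a type and less RNA per cell cannot be told apart, which holds for every result here. On the first principal component, which held 47.3% of the variance, the 3 libraries labelled Recql KO lay at 74.1 to 79.7 and the other 9 at -54.4 to -7.02. Xist was not called without WT replicates 1, 2 and 3 or Recql KO replicates 2 and 3 (edgeR adjusted p up to 0.104).

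In all, 4444 genes (29.9%) were called changed at an edgeR adjusted p under 0.05, 2118 of them higher (14.2% of all tested) and 2326 lower (15.6%). Among the called genes 278 rose and 336 fell by more than 4-fold, while 1865 changed by less than 1.5-fold. The median absolute log2 fold change of called genes was 0.70, and the median over all genes was -0.01. For 3241 of the called genes all 3 libraries labelled Recql KO lay outside the range of all 9 other libraries, 1626 above it and 1615 below it. The same was true of 4041 genes tested (27.2%). The WT libraries and those labelled Recql KO did not overlap in 4396 called genes (98.9%) and in 7336 genes tested (49.3%). Lack of overlap therefore adds little to a call. The number called was 2886 when Recql KO replicate 1 was left out and 2692 when replicate 2 was. A further fit kept only libraries with a Y-linked sum above 100 CPM, called rich in Y-linked transcripts below. These were all WT libraries, Recql KO replicate 1, Blm KO replicate 1 and double KO replicate 2. The spread in that fit comes from WT alone, so its counts are not comparable with those of the other fits.

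**Figure D1:**
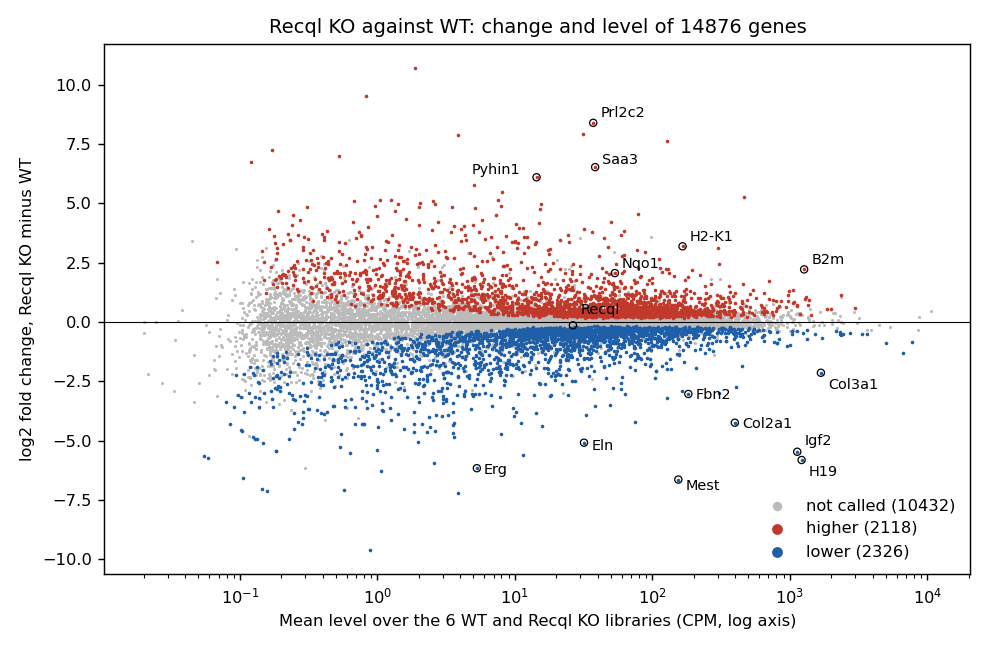
Each point is 1 of 14876 genes, with its mean level over the 6 libraries in CPM on a log axis and its log2 fold change in the libraries labelled Recql KO against WT. Red points rose (2118), blue points fell (2326) and grey points were not called. Prl2c2 and Saa3 lie among the highest points, Mest, H19, Igf2 and Eln among the lowest, and Recql close to 0.

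Genes were grouped by function, and each group is given by the number of its tested members that rose or fell, to be read against the 14.2% and 15.6% over all genes. High shares of members rose among the Ifi200 cluster, MHC class I presentation, GTPases of the interferon response, NRF2 targets and other interferon-stimulated genes. High shares fell among imprinted growth, mitotic, Hedgehog and cartilage genes.

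**Figure D2:**
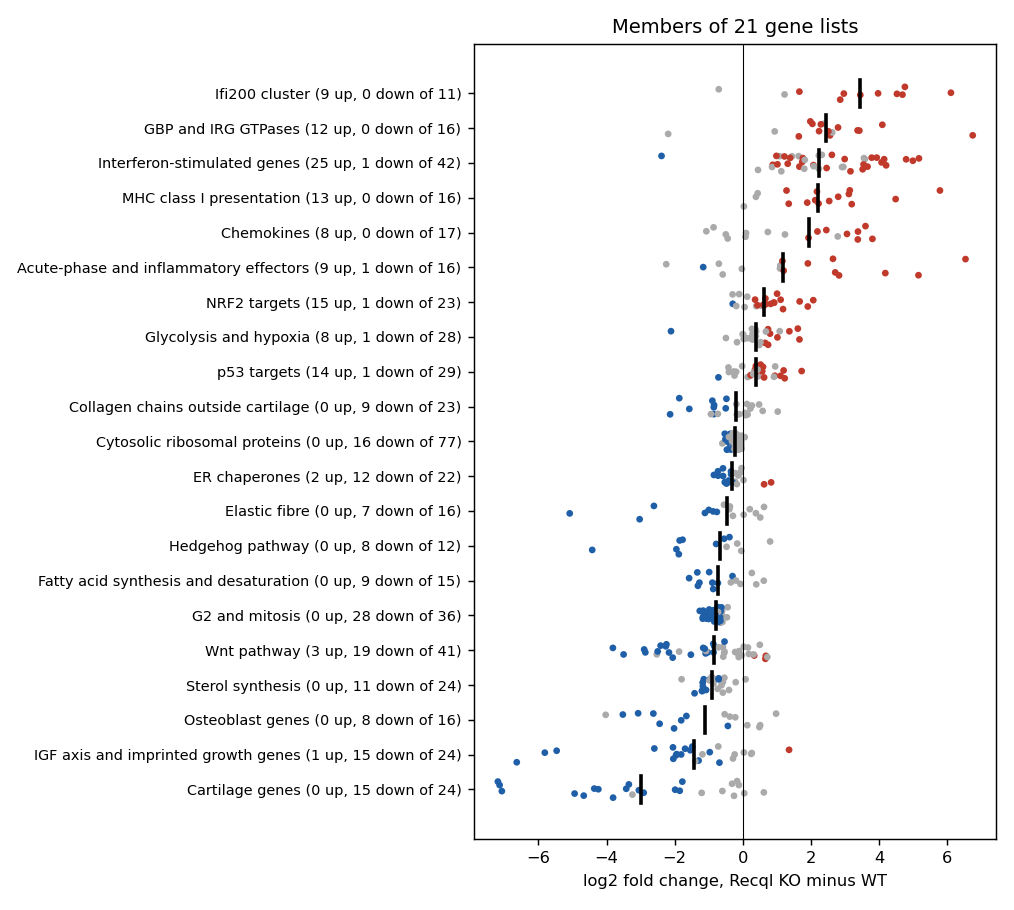
Each row is a gene list and each point 1 tested member, placed by its log2 fold change in the libraries labelled Recql KO against WT. Red points rose, blue points fell, grey points were not called, and the black bar is the median, from -2.98 for cartilage genes to 3.45 for the Ifi200 cluster.

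Genes for secreted placental hormones were among the largest rises. Proliferins are prolactin-related growth factors of the placenta that cultured fibroblasts can also make, and 3 of 5 listed members rose. The other 2, Prl2c1 and Prl2c5, did not pass the filter on low counts, and the 3 that did were near 0 in WT, so their share is not comparable with that over all genes. Prl2c3 stood at 0.222, 0.38 and 0.152 CPM in WT and 30.9, 58.5 and 98.6 CPM in the libraries labelled Recql KO (a log2 fold change of 7.94 ± 0.94 SE, with an edgeR adjusted p = 0.000487). Prl2c4 had 0 counts in WT and 3.67, 0.998 and 0.307 CPM in the libraries labelled Recql KO, at least 91-fold higher taking 3 counts in the WT group as the floor. The 3 KO libraries differed widely among themselves in both genes. With 0 counts of Prl2c4 in WT, any count lies above WT, so lack of overlap adds nothing there. Prl2c genes are near-identical copies, so the share of reads given to each is uncertain. In the plasminogen system, which dissolves fibrin and matrix, 2 of 9 members rose and none fell, and the first number was 4 in a fit on the 6 libraries alone and 1 leaving out WT replicate 1 or 3 or Recql KO replicate 1 or 2. They were Serpinb2, a plasminogen activator inhibitor, at 0.481, 0.242 and 0.341 against 10.9, 20.6 and 15.5 CPM, and S100a10, a plasminogen receptor subunit (1.54-fold, edgeR adjusted p = 0.0289). The activator gene Plau did not pass the test (edgeR adjusted p = 0.158). S100a10 was not called without WT replicates 1 and 3 or Recql KO replicates 1 and 2 (edgeR adjusted p up to 0.0883).

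Acute-phase and inflammatory effector genes rose in the libraries labelled Recql KO. Of 16 tested, 9 rose and 1 fell, with a median log2 fold change of 1.18. Nos2, the inducible nitric oxide synthase gene, stood at 1.13, 0.0346 and 0.0758 CPM in WT and 13.2, 12.9 and 18 CPM in the libraries labelled Recql KO (35.5-fold, edgeR adjusted p = 0.00246). Lcn2, which encodes an iron-scavenging lipocalin, rose 18.1-fold from 3.29, 0.398 and 1.04 to 27.3, 22.1 and 36.2 CPM (edgeR adjusted p = 0.00708). Ceruloplasmin, a copper-carrying ferroxidase encoded by Cp, showed little spread, at 28.1, 30.9 and 33.3 CPM in WT and 181, 174 and 222 CPM in the libraries labelled Recql KO (a log2 fold change of 2.64 ± 0.24 SE, with an edgeR adjusted p = 0.00016). Complement C3 stood at 31.1, 5.39 and 9.63 against 80.5, 87.6 and 158 CPM (edgeR adjusted p = 0.015). WT replicate 1 was the highest WT library for Nos2, Lcn2 and C3. Lack of overlap with WT was part of the rule that named these genes. C3 was not called without WT replicate 3 (edgeR adjusted p = 0.0578).

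Chemokines draw immune cells to a site of damage. Of 17 tested, 8 rose and 0 fell (median log2 fold change 1.93). Cxcl16 stood at 7.76, 3.8 and 3.83 CPM in WT and 26.7, 27.5 and 29.8 CPM in the libraries labelled Recql KO (5.46-fold, edgeR adjusted p = 0.00116). Ccl8 rose 10.3-fold, Ccl11 13.9-fold and Cxcl10, an interferon-induced T cell attractant, 8.31-fold (edgeR adjusted p = 0.00437, 0.0136 and 0.0121). Cx3cl1 did not pass (edgeR adjusted p = 0.0514). The number of chemokines that rose was 5 adjusting for the Y-linked level, 1 among libraries rich in Y-linked transcripts, 4 leaving out WT replicate 2 and 5 leaving out WT replicate 3 or Recql KO replicate 2 or 3. Among cytokines and their receptors 4 of 14 rose and 1 fell, and the first number was 2 leaving out WT replicate 3. Csf1, the macrophage growth factor gene, stood at 685, 562 and 532 CPM in WT and 1661, 1466 and 1386 CPM in the libraries labelled Recql KO (edgeR adjusted p = 0.00117). Il6 rose 4.49-fold, whereas Il6st, the signalling receptor subunit for interleukin 6, fell 1.97-fold (edgeR adjusted p = 0.00515 and 0.00556). Outside these lists, Cd40 and Tnfrsf9, receptors of the TNF family, rose 19.5-fold and 31.7-fold (edgeR adjusted p = 0.00311 and 0.000158).

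Interferon-responsive genes were higher in the libraries labelled Recql KO as a broad group. Interferons act through STAT and IRF factors, which bind interferon-stimulated response elements in promoters and turn on antiviral genes. Of the 11 tested genes of the Ifi200 cluster, a cluster on chromosome 1 whose members include sensors of DNA, 9 rose and 0 fell (median log2 fold change 3.45). AI607873 stood at 1.13, 1.57 and 0.569 CPM in WT and 29.6, 31.1 and 27.9 CPM in the libraries labelled Recql KO, and Ifi205 at 0.444, 1.09 and 0.265 against 10.1, 13.5 and 18 CPM. Both rose, by 27-fold and 22.9-fold (edgeR adjusted p = 0.00184 and 0.00261). Ifi202b was low in both groups, at 0.129, 0.207 and 0.0569 against 0.0371, 0.12 and 0.0819 CPM, while double KO libraries stood at 179.7, 55.6 and 16.1 CPM. Of 16 guanylate-binding and immunity-related GTPases, which attack vacuoles of intracellular microbes, 12 rose and 0 fell. Igtp stood at 5.03, 8.35 and 3.53 CPM in WT and 27, 31.3 and 38 CPM in the libraries labelled Recql KO (5.69-fold, edgeR adjusted p = 0.0165), and Irgm2 at 13.6, 21 and 9.63 against 59, 72.4 and 84.8 CPM (4.88-fold, edgeR adjusted p = 0.0283). Igtp was not called without WT replicates 1 and 3 (edgeR adjusted p up to 0.0624). Irgm2 was not called without WT replicates 1 and 3 or Recql KO replicates 1, 2 and 3 (edgeR adjusted p up to 0.0942).

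In the list of interferon-stimulated genes 25 of 42 rose and 1 fell, with a median log2 fold change of 2.23. Trim30a, a negative regulator of innate signalling, stood at 3.64, 8.92 and 2.96 CPM in WT and 91.1, 97.9 and 97.4 CPM in the libraries labelled Recql KO (18.4-fold, edgeR adjusted p = 0.0151). Oas1a and Oas2, sensors of double-stranded RNA, rose 17.7-fold and 27.6-fold, and Zbp1, a sensor of Z-form nucleic acid, 16.8-fold (edgeR adjusted p = 0.0331, 0.0342 and 0.0312). WT libraries varied in these genes, with replicate 2 highest for Trim30a, Oas1a, Oas2 and Zbp1. Several calls depended on single libraries. The number of interferon-stimulated genes that rose was 14 with no filter on low counts, 38 in a fit on the 6 libraries alone, 8 adjusting for the Y-linked level, 12 among libraries rich in Y-linked transcripts, 9 leaving out WT replicate 1, 5 leaving out WT replicate 3, 12 leaving out Recql KO replicate 1, 10 leaving out Recql KO replicate 2 and 11 leaving out Recql KO replicate 3. For the GTPases it was 5 adjusting for the Y-linked level, 5 among libraries rich in Y-linked transcripts, 5 leaving out WT replicate 1 or Recql KO replicate 2, 2 leaving out WT replicate 3, 7 leaving out Recql KO replicate 1 and 4 leaving out Recql KO replicate 3. Oas1a and Oas2 were not called without WT replicates 1 and 3 or Recql KO replicates 1, 2 and 3 (edgeR adjusted p up to 0.101 and 0.101). Trim30a was not called without WT replicates 1 and 3 (edgeR adjusted p up to 0.0581). Zbp1 was not called without WT replicates 1 and 3 or Recql KO replicates 2 and 3 (edgeR adjusted p up to 0.0955).

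Genes of MHC class I presentation, which display peptides on the cell surface to T cells, rose in all but 3 cases. Of 16 tested, 13 rose and none fell (median log2 fold change 2.20). H2-K1 (chromosome 17, 33996017 to 34000347 on mm10), a class I heavy chain, stood at 35.4, 36.2 and 26.5 CPM in WT and 243, 293 and 362 CPM in the libraries labelled Recql KO (a log2 fold change of 3.19 ± 0.45 SE, with an edgeR adjusted p = 0.001). H2-D1 stood at 46.3, 76.6 and 63 against 446, 529 and 631 CPM and the light chain gene B2m at 543, 415 and 389 against 2282, 1932 and 2068 CPM. All 3 libraries labelled Recql KO exceeded every WT library several times over in these 3 genes. Nlrc5, the transcriptional activator of class I genes, rose 8.79-fold (edgeR adjusted p = 0.00809). The number that rose was 10 among libraries rich in Y-linked transcripts and between 11 and 14 in the other alternatives. Tapbp did not pass (edgeR adjusted p = 0.141). Class I, Ifi200, Gbp and Oas genes have close paralogs, so that reads may be split among them. Interferon genes themselves were not detected at a level that passed the filter, namely Ifnb1, Ifng and 5 other interferon genes. Of 4 interferon receptor genes Ifngr1 and Ifngr2 rose (1.36-fold and 1.67-fold, edgeR adjusted p = 0.00632 and 0.00134) and Ifnar1 fell (1.22-fold, edgeR adjusted p = 0.0484). Of 15 nucleic acid sensing genes 6 rose and 3 fell. The number that rose was 3 adjusting for the Y-linked level, 1 among libraries rich in Y-linked transcripts and 3 leaving out WT replicate 1 or Recql KO replicate 2. Among them Tlr3 and Mb21d1, the gene of cGAS, rose 3.41-fold and 1.62-fold, while Tmem173, the gene of STING, and Samhd1 fell 1.79-fold and 1.93-fold. Ifnar1 was not called without WT replicates 1 and 3 or Recql KO replicates 1, 2 and 3 (edgeR adjusted p up to 0.175).

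Promoters of these genes were searched for the letters of the interferon-stimulated response element (GAAA, any 2 bases, GAAA) on both strands of RefSeq windows (GRCm38.p6) from 250 bases before to 50 bases after each start site. Overlapping matches were counted, and no other motif was masked. At least 1 match was found in 10 of 11 GTPase genes with a window, 7 of 10 Ifi200 genes, 14 of 29 interferon-stimulated genes and 4 of 14 class I genes. The share was 3.44% over all 32851 windows and 3.67% over the 11700 tested genes with a window. Shown are 4 upstream stretches of genes that rose, on mm10, with the match in capitals (read on the other strand it is TTTC, any 2 bases, TTTC) and the gene's own strand written 5′ to 3′. They were chosen after the values were seen.
Irgm2, chr11:58214893-58214942 on the plus strand: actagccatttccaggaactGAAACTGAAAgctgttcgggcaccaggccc
Igtp, chr11:58199502-58199551 on the plus strand: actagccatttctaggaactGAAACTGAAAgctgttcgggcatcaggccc
B2m, chr2:122147528-122147577 on the plus strand: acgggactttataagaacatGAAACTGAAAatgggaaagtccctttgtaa
Rsad2, chr12:26456543-26456592 on the minus strand: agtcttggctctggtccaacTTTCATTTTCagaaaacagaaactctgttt
Irgm2 and Igtp, neighbours on chromosome 11, share nearly the same stretch. A match describes letters and was not tested for binding.

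Targets of NRF2, the transcription factor of the antioxidant response, rose, mostly by small amounts. Of 23 tested, 15 rose and 1 fell, with a median log2 fold change of 0.61. In 17 all 3 libraries labelled Recql KO lay above all 9 others. Over all genes tested, 27.2% lay outside the 9 others in either direction. Txnrd1, which encodes a thioredoxin reductase, stood at 232, 269 and 238 CPM in WT and 365, 407 and 407 CPM in the libraries labelled Recql KO, and Gclm, which encodes the glutathione synthesis modifier subunit, at 37.4, 37 and 31.6 against 76.6, 63.7 and 58.4 CPM. Their groups did not overlap, as was true of 98.9% of called genes (edgeR adjusted p = 0.00189 and 0.000892). Cbr3, a carbonyl reductase gene, rose 3.17-fold and Slc7a11, the cystine transporter gene, 2-fold (edgeR adjusted p = 0.00173 and 0.00642). The member that fell was G6pdx (1.23-fold), of the pentose phosphate pathway. The count of NRF2 targets that rose was 15 whichever library was left out and 6 among libraries rich in Y-linked transcripts. The letters TGACNNNGC of the antioxidant response element core were found in 7 of 18 windows of these genes, against 16.8% of tested genes and 12.4% of all windows. Upstream stretches of Txnrd1 and Gclm, which both rose, are given with the match in capitals (read on the other strand it is GC, any 3 bases, GTCA).
Txnrd1, chr10:82859094-82859142 on the plus strand: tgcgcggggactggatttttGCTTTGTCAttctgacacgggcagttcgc
Gclm, chr3:122245403-122245451 on the plus strand: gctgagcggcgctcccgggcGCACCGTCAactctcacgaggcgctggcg
G6pdx was not called without WT replicates 1 and 3 or Recql KO replicates 1 and 2 (edgeR adjusted p up to 0.0965).

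Cell cycle genes split by phase. In G1, when cells commit to division, Ccnd1, the cyclin D1 gene, stood at 200.0, 275 and 218 CPM in WT and 514, 463 and 473 CPM in the libraries labelled Recql KO (2.09-fold, edgeR adjusted p = 0.0103). Ccne1 rose 1.77-fold and Cdk6 1.74-fold, whereas Cdk4 fell 1.26-fold (edgeR adjusted p = 0.00954, 0.00442 and 0.00824), for 5 higher and 1 lower of 18. CDK inhibitors, which brake the cycle, went both ways. Cdkn2a, the locus of p16 and ARF, stood at 15.3, 19.2 and 17.5 CPM in WT and 42.1, 41.7 and 40.6 CPM in the libraries labelled Recql KO, while Cdkn2c, which encodes p18, fell from 11.9, 10.8 and 10.8 to 4.22, 4.32 and 6.66 CPM (edgeR adjusted p = 0.00763 and 0.00106). Cdkn1c, an imprinted inhibitor gene, fell 6.05-fold (edgeR adjusted p = 0.00279). Trp53 itself missed the threshold (edgeR adjusted p = 0.13). In the p53 target list, 14 of 29 genes rose and 1 fell. They included Pmaip1, a cell death gene, at 51.3, 80.0 and 86.5 against 188, 154 and 167 CPM, and Gdf15, a stress cytokine gene (3.3-fold), whereas Sesn1 fell 1.64-fold. The number of p53 targets that rose was 8 adjusting for the Y-linked level, 7 among libraries rich in Y-linked transcripts, 9 leaving out WT replicate 2 or Recql KO replicate 2 and 7 leaving out Recql KO replicate 1.

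Genes of G2 and mitosis, which are switched on before cell division, fell together. Of 36 tested, 28 fell and none rose, and every member had a negative log2 fold change, with a median of -0.80. Bub1b, a spindle checkpoint kinase gene, stood at 65.6, 74.1 and 61.6 CPM in WT and 23.6, 31.6 and 37.3 CPM in the libraries labelled Recql KO. Ccna2, the cyclin A2 gene, stood at 135, 151 and 120.3 against 51.5, 59.2 and 69.1 CPM (edgeR adjusted p = 0.00534 and 0.00448). Cenpa, which encodes the centromeric histone, fell 2.26-fold and Cdc25c 2.4-fold (edgeR adjusted p = 0.00531 and 0.00179). Mki67 and Top2a did not pass (edgeR adjusted p = 0.0549 and 0.0735). The number that fell was 16 adjusting for the Y-linked level, 14 leaving out Recql KO replicate 1 and 15 leaving out Recql KO replicate 2. DNA replication genes moved little, with 2 higher and 4 lower of 42, the latter number being 7 in a fit on the 6 libraries alone, 1 adjusting for the Y-linked level, 2 among libraries rich in Y-linked transcripts, 2 leaving out WT replicate 1 or 2 or Recql KO replicate 3 and 1 leaving out WT replicate 3 or Recql KO replicate 1 or 2. Of 15 RecQ helicases and partners 3 fell (Parp1, Wrn and Xrcc5) and none rose. CCAAT boxes, bound by NF-Y, were found in 23 of 29 windows of mitotic genes against 42.8% of tested genes and 37.4% of all windows. The letters TTTGAA of the cell cycle homology region, bound by the DREAM and MuvB complexes, were found in 20 of 29, against 14.5% and 17.9%. High CCAAT shares were not particular to mitotic genes. CCAAT was found in 11 of 14 windows of class I genes, most of which rose. The counts were 16 of 16 for sterol genes and 9 of 29 for interferon-stimulated genes. The Cenpa stretch holds 2 CCAAT boxes on the opposite strand (ATTGG, capitals), and the Ccnb1 stretch 2 on the gene's strand. Both genes fell.
Cenpa, chr5:30666757-30666824 on the plus strand: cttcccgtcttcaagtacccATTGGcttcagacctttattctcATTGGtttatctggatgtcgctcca
Ccnb1, chr13:100786529-100786605 on the minus strand: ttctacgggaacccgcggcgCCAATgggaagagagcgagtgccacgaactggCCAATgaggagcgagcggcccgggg
Xrcc5 was not called without WT replicates 1 and 3 or Recql KO replicates 1 and 2 (edgeR adjusted p up to 0.102).

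The main fibrillar collagen chains fell in the libraries labelled Recql KO, and most other chains did not pass the test. Of 23 collagen chains outside cartilage 9 fell and none rose, and among the 6 fibrillar chains, which form the main fibres, 5 fell. Col3a1 (chromosome 1, 45311538 to 45349706 on mm10) stood at 2761, 2681 and 2787 CPM in WT and 551, 449 and 875 CPM in the libraries labelled Recql KO (4.39-fold lower, log2 fold change -2.13 ± 0.29 SE, edgeR adjusted p = 0.000855). Col1a1 stood at 10211, 9593 and 10213 against 5595, 4554 and 6473 CPM and Col1a2 at 7040.1, 6729 and 5653 against 3638, 2932 and 3874 CPM. The basement membrane chain Col4a1 did not pass (edgeR adjusted p = 0.336). The number of chains that fell was 4 among libraries rich in Y-linked transcripts. Without WT replicate 2, 3 chains rose. Serpinh1, the collagen chaperone gene, fell 1.59-fold and Fkbp10 1.38-fold, while the crosslinking enzyme gene Loxl2 rose 1.84-fold (edgeR adjusted p = 0.000945, 0.0064 and 0.0087).

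Elastin is the rubber-like core of elastic fibres, laid on fibrillin scaffolds. Eln (chromosome 5, 134702593 to 134747323 on mm10) stood at 51, 73.1 and 61.6 CPM in WT and 0.945, 1.34 and 3.26 CPM in the libraries labelled Recql KO (33.8-fold lower, log2 fold change -5.08 ± 0.46 SE, edgeR adjusted p = 0.00016). Double KO libraries stood at 156, 97.9 and 188 CPM, above WT. Fbn2, the fibrillin of embryonic tissue, stood at 341, 268 and 368 CPM in WT and 40.9, 39.8 and 39 CPM in the libraries labelled Recql KO (edgeR adjusted p = 0.000219), and Mfap4 fell 6.1-fold (edgeR adjusted p = 0.00173). Of 16 elastic fibre genes 7 fell and none rose. Their number was 4 among libraries rich in Y-linked transcripts, 3 leaving out WT replicate 3 or Recql KO replicate 2 and 4 leaving out Recql KO replicate 1. Fbn1 and Fbln2 did not pass (edgeR adjusted p = 0.0653 and 0.203).

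Small leucine-rich proteoglycans organise collagen fibrils, and 2 of 15 genes for them and for hyaluronan binding rose while 5 fell. The number that rose was 1 with no filter on low counts and 1 leaving out WT replicate 1, 2 or 3 or Recql KO replicate 1, and that fell 3 adjusting for the Y-linked level, 2 among libraries rich in Y-linked transcripts and 3 leaving out WT replicate 1 or Recql KO replicate 2 or 3. Ogn stood at 485, 329.6 and 827 CPM in WT and 99.2, 41.9 and 64.8 CPM in the libraries labelled Recql KO, Aspn at 786, 477 and 869.6 against 169, 65.1 and 82 CPM (edgeR adjusted p = 0.00153 and 0.000763). Dcn, the decorin gene, moved the other way, from 49.6, 44.2 and 57.6 to 289, 144 and 206 CPM, as did Cd44, the hyaluronan receptor gene (4.22-fold and 2.45-fold, edgeR adjusted p = 0.0232 and 0.00965). Matricellular and YAP-responsive genes split evenly, 4 higher and 4 lower of 19. Ankrd1 rose 5.48-fold and Tnc 2.22-fold, while Tgfbi fell 3.61-fold and Nov 4.76-fold (edgeR adjusted p = 0.012, 0.00806, 0.00307 and 0.00789). Matrix proteases and their inhibitors gave 7 higher and 6 lower of 30, with Mmp23 falling 2.9-fold (edgeR adjusted p = 0.000869). The number higher was 4 among libraries rich in Y-linked transcripts, 3 leaving out WT replicate 2 and 4 leaving out WT replicate 3 or Recql KO replicate 3, and the number lower 3 among libraries rich in Y-linked transcripts. Integrins and laminins gave 6 higher and 7 lower of 29, with Itga3, Nid2 and Lama5 lower (4.18-fold, 2.86-fold and 3.75-fold). The number higher was 2 among libraries rich in Y-linked transcripts, 2 leaving out WT replicate 3 and 3 leaving out Recql KO replicate 1, and the number lower 4 leaving out Recql KO replicate 2. Of 22 contractile genes 6 fell and 1 rose. Acta2, the smooth muscle actin gene, did not pass (edgeR adjusted p = 0.618), while Smtn fell 1.95-fold and Vcl 1.66-fold. The number of contractile genes that fell was 1 among libraries rich in Y-linked transcripts and 3 leaving out WT replicate 2 or 3 or Recql KO replicate 2 or 3. Dcn was not called without WT replicates 1, 2 and 3 or Recql KO replicate 1 (edgeR adjusted p up to 0.0754).

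Cartilage genes had the lowest median change of all lists in the main fit. Of 24 tested, 15 fell and none rose (median log2 fold change -2.98). The median was -1.99 over 21 genes in a fit on the 6 libraries alone. Keeping genes above 1 CPM in 3 libraries, it was -1.91 over 20 genes. Epithelial and mesothelial markers were lower in both alternatives, at -2.37 and -2.74. Col2a1, the collagen of cartilage, stood at 499, 496 and 1275 CPM in WT and 60.0, 31.5 and 28.6 CPM in the libraries labelled Recql KO. Acan, the aggrecan gene, stood at 25.4, 33.7 and 31.1 against 0.204, 0.138 and 4.14 CPM, with Recql KO replicate 3 the highest of the label (edgeR adjusted p = 0.000937 and 0.0104). Comp fell 14-fold and Col9a2 25.4-fold (edgeR adjusted p = 0.00144 and 0.000454). Sox9, the chondrocyte transcription factor gene, did not pass (edgeR adjusted p = 0.329). The number of cartilage genes that fell was 6 among libraries rich in Y-linked transcripts. Osteoblast genes fell in 8 of 16 cases, among them Omd, at 33.3, 31 and 35.4 against 8.17, 4.51 and 5.67 CPM, and Dlx5 (6.17-fold, edgeR adjusted p = 0.000692). For these the number was 4 among libraries rich in Y-linked transcripts and 4 leaving out Recql KO replicate 2. Tendon genes gave 1 higher and 5 lower of 7, with Tnmd, the tenomodulin gene, falling 6.17-fold (edgeR adjusted p = 0.00844). The number of tendon genes that fell was 3 with no filter on low counts, 2 among libraries rich in Y-linked transcripts, 3 leaving out WT replicate 1 or 3 or Recql KO replicate 1 or 3 and 2 leaving out Recql KO replicate 2.

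Markers of other cell types were summed over each list. Epithelial and mesothelial markers summed to 59.1, 83.7 and 189 CPM in WT and 16.5, 31.3 and 22.9 CPM in the libraries labelled Recql KO. In that list 9 of 13 fell, led by Msln, the mesothelin gene (18.8-fold), and Krt14, which had 0 counts in every library labelled Recql KO, at least 94.1-fold lower than WT taking 3 counts in the group as the floor. Their number was 4 adjusting for the Y-linked level, 0 among libraries rich in Y-linked transcripts, 4 leaving out WT replicate 3, 3 leaving out Recql KO replicate 1 and 5 leaving out Recql KO replicate 3. Endothelial markers summed to 72.4, 58.1 and 48.3 CPM in WT and 26.9, 31.8 and 30.9 CPM in the libraries labelled Recql KO, with Cldn5 and Sox17, which did not pass the filter on low counts, at 0 in the latter, and 5 of 11 fell. That number was 3 adjusting for the Y-linked level, 2 among libraries rich in Y-linked transcripts, 3 leaving out WT replicate 1, 2 or 3, 1 leaving out Recql KO replicate 1 and 2 leaving out Recql KO replicate 2. Macrophage and blood markers stood at 11.6 to 23.5 against 6.99 to 12.1 CPM. Skeletal muscle markers summed to 25.6 to 63.9 against 93.1 to 107 CPM, nearly all of it Acta1. Of the 10 muscle markers tested none rose and 4 fell (median log2 fold change -1.68), against the direction of the sum. That median depended on the filter. Keeping genes above 1 CPM in 3 libraries left 3 muscle markers, with a median of 1.1 and 1 lower. A fit on the 6 libraries alone left 8, with a median of -0.445, 1 higher and 3 lower. Myh8, a fetal myosin gene, stood at 0.333, 0.259 and 0.284 CPM in WT and at 0 in every library labelled Recql KO, as did Myl1, at 0.0739, 0.0346 and 0.246 CPM in WT. Myl1 lost its call without WT replicate 3 or Recql KO replicate 2 (edgeR adjusted p = 0.0522 and 0.0523). Myog, Ckm and Chrng were also at 0 in these libraries, but did not pass the filter on low counts and were not tested. Neural markers stood at 355 to 511 against 620 to 661 CPM, and the fibroblast list at 35450 to 38550 against 24751 to 28509 CPM. The neural sum was as high in the other genotypes, at 556, 713 and 635 CPM in Blm KO and 588.5, 667 and 597 CPM in double KO. Of 16 neural markers tested 2 rose and 1 fell. Whether these differences account for part of the cartilage, bone or matrix results was not tested. Of the fibroblast markers, Twist2 rose 4.87-fold and Twist1 fell 1.62-fold (edgeR adjusted p = 0.00105 and 0.00856), while Fn1 and Vim did not pass (edgeR adjusted p = 0.372 and 0.0633).

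Hox genes, which set position along the body and limb axes, divided by paralogue number and by cluster. Among paralogues 1 to 8, active in anterior and trunk positions, 13 of 21 rose and none fell (median log2 fold change 0.949). Among paralogues 9 to 13, of the posterior trunk and distal limb, 2 of 15 rose and 7 fell (median -1.38). These falls were confined to Hoxa (3 of 4) and Hoxd (4 of 5). Of the Hoxb genes in this range 1 of 2 rose, and of the Hoxc genes 1 of 4 (median 0.7), and none fell. In the first group none of 3 Hoxd genes rose. All 7 tested Hoxb genes of the first group rose. Hoxb7 stood at 6.78, 7.14 and 8.91 CPM in WT and 27.1, 24.6 and 21.8 CPM in the libraries labelled Recql KO (3.22-fold, edgeR adjusted p = 0.00173). Hoxd13, the most distal limb gene, stood at 127, 68.4 and 74.2 CPM in WT and 1.09, 8.43 and 29.5 CPM in the libraries labelled Recql KO (edgeR adjusted p = 0.0242). Its level differed widely within the label, with replicate 1 lowest and replicate 3 highest, and the double KO libraries were also below WT at 18.3, 36 and 27.1 CPM. Hoxd10, Hoxd11 and Hoxd12 fell 3.36-fold, 5.48-fold and 7.84-fold, and Hoxa13 5.59-fold (edgeR adjusted p = 0.0371, 0.0323, 0.0158 and 0.0352). The number of Hox genes that rose was 8 among libraries rich in Y-linked transcripts and 9 leaving out WT replicate 1 or Recql KO replicate 1, and that fell was 3 with no filter on low counts, 2 in a fit on the 6 libraries alone, 2 leaving out WT replicate 1, 3 leaving out WT replicate 3 and 1 leaving out Recql KO replicate 2. Hoxa13 was not called without WT replicates 1, 2 and 3 or Recql KO replicates 1 and 2 (edgeR adjusted p up to 0.116). Hoxd10 and Hoxd11 were not called without WT replicates 1 and 3 or Recql KO replicate 2 (edgeR adjusted p up to 0.106 and 0.109). Hoxd12 was not called without Recql KO replicate 2 (edgeR adjusted p = 0.0665). Hoxd13 was not called without WT replicate 1 or Recql KO replicate 2 (edgeR adjusted p up to 0.0913).

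**Figure D3:**
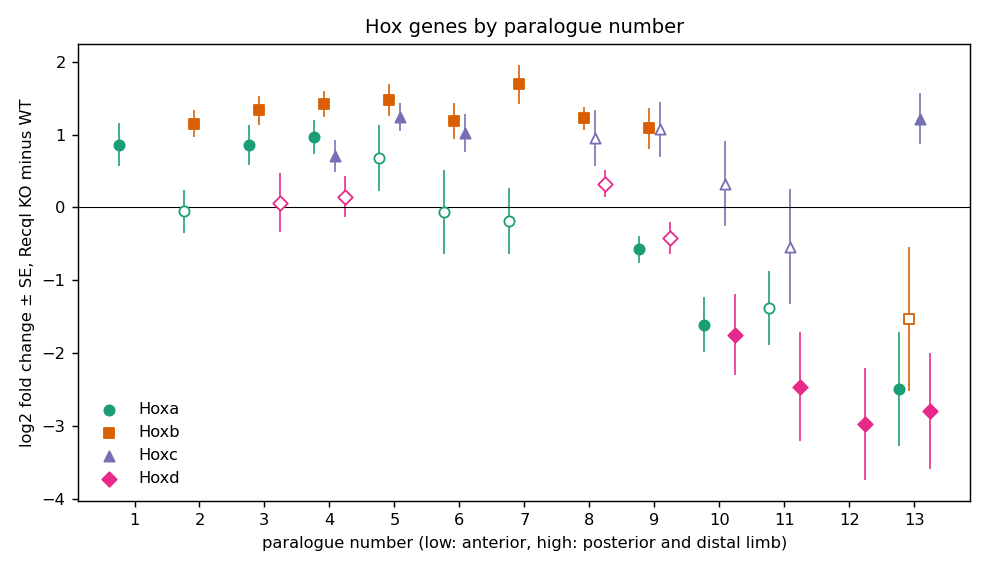
Log2 fold change of each tested Hox gene in the libraries labelled Recql KO against WT, by paralogue number and cluster, with the SE of the model as bars. Filled symbols were called and open ones were not, and the Hoxb genes up to paralogue 9 lie above 0 while Hoxd10 to Hoxd13 lie below.

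Other regional factors gave 6 higher and 8 lower of 47. The number higher was 2 among libraries rich in Y-linked transcripts and 3 leaving out WT replicate 1 or Recql KO replicate 2 or 3, and the number lower 5 adjusting for the Y-linked level, 14 by DESeq2 and 5 leaving out Recql KO replicate 2. Meox2, of limb and somite mesenchyme, fell 19.1-fold (edgeR adjusted p = 0.00106).

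More Wnt signalling genes fell than rose. Wnt ligands bind Frizzled and LRP receptors and stabilise beta-catenin. Of 41 tested, 3 rose and 19 fell. Of the ligands 2 rose and 3 fell of 10, among them Wnt16, at 28.4, 15.7 and 35.9 CPM in WT and 2.09, 1.29 and 2.31 CPM in the libraries labelled Recql KO (edgeR adjusted p = 0.00052). Of the receptors 1 rose and 7 fell of 11, among them Fzd4 (5.65-fold lower, edgeR adjusted p = 0.00726). Of the secreted antagonists 5 of 9 fell and none rose, with Sfrp2 at 123, 46.4 and 101 against 3.09, 4.58 and 16.4 CPM and Wif1 7.27-fold lower. Of 6 target and feedback genes 3 fell. The number of Wnt genes that rose was 1 among libraries rich in Y-linked transcripts and 1 leaving out WT replicate 1 or Recql KO replicate 1, 2 or 3, and that fell was 6 among libraries rich in Y-linked transcripts and 12 leaving out Recql KO replicate 2.

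Hedgehog signals pass through PTCH1 and SMO to GLI factors, with CDON, BOC and GAS1 as co-receptors. Of 12 tested genes 8 fell and none rose. Cdon stood at 155, 130.5 and 169 CPM in WT and 39.7, 41.1 and 44.7 CPM in the libraries labelled Recql KO, and Gli2 at 26.8, 25.5 and 25.4 against 4.67, 7.92 and 7.54 CPM (edgeR adjusted p = 0.000158 and 0.000682). Hhip, an antagonist induced by the pathway, fell 21.4-fold and Gas1 3.41-fold (edgeR adjusted p = 0.00117 and 0.00958). Ptch1 and Sufu did not pass (edgeR adjusted p = 0.0633 and 0.0994). The number that fell was 5 among libraries rich in Y-linked transcripts and 4 leaving out WT replicate 3 or Recql KO replicate 1. TGF-beta and BMP genes went both ways, 12 higher and 8 lower of 45. Bmp4 stood at 70.4, 75.6 and 83.9 CPM in WT and 5.26, 12.8 and 26.3 CPM in the libraries labelled Recql KO (5.19-fold lower), while Inhba, an activin subunit gene, rose 2.91-fold (edgeR adjusted p = 0.00409 and 0.00113). The number that rose was 3 among libraries rich in Y-linked transcripts, and that fell was 13 in a fit on the 6 libraries alone, 4 among libraries rich in Y-linked transcripts and 5 leaving out WT replicate 3 or Recql KO replicate 2. Notch pathway genes gave 1 higher and 3 lower of 16 (25% called, against 29.9% over all genes), with a median log2 fold change of 0.02. Notch4 rose 9.43-fold, and Lfng and Heyl fell 2.16-fold and 12.3-fold. Growth factor genes of the FGF, PDGF, EGF and HGF families gave 7 higher and 6 lower of 32, and 0 and 1 among libraries rich in Y-linked transcripts. Ereg, the epiregulin gene, rose 2.59-fold, and Fgfr2 fell 3.3-fold. Semaphorin, plexin, ephrin and netrin guidance genes gave 5 higher and 17 lower of 47, with Epha3 falling from 70.6, 54.9 and 73.8 to 13.3, 6.71 and 8.42 CPM and Ntn1 rising from 17.2, 19.7 and 14.2 to 48.8, 60.4 and 75.8 CPM (edgeR adjusted p = 0.000153 and 0.001). The number of guidance genes that fell was 9 among libraries rich in Y-linked transcripts, 10 leaving out Recql KO replicate 1 and 9 leaving out Recql KO replicate 2.

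Imprinted growth genes fell, whichever parental copy is used. Imprinted genes are expressed from 1 parental copy and many control embryonic growth. Of 16 tested, 13 fell and none rose (median log2 fold change -1.88). Of those expressed from the paternal copy 9 of 11 fell, and of those from the maternal copy 4 of 5. Mest (chromosome 6, 30723547 to 30748465 on mm10) stood at 164, 103 and 651 CPM in WT and 2.8, 2.44 and 4.03 CPM in the libraries labelled Recql KO (a log2 fold change of -6.63 ± 0.78 SE, with an edgeR adjusted p = 0.000487). Igf2, the fetal growth factor gene, stood at 1546, 1023 and 4078 against 67.7, 48.6 and 34.4 CPM and its neighbour H19 at 1438, 909.7 and 4834 against 50.3, 30.4 and 47.3 CPM (edgeR adjusted p = 0.00423 and 0.00151). WT replicate 3 was the highest library for Mest, Igf2 and H19. The groups did not overlap in these genes, as was true of 98.9% of called genes. Peg10 fell 4.11-fold (edgeR adjusted p = 0.000706). Over the whole list of IGF axis and imprinted genes, with 1 higher and 15 lower of 24, the number that fell was 6 among libraries rich in Y-linked transcripts. Igf2r and Igfbp5 did not pass (edgeR adjusted p = 0.145 and 0.142).

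Many lipid synthesis genes fell. Cholesterol is made by enzymes under SREBP2, and of 24 such genes 11 fell and none rose. Hmgcs1 stood at 353, 302 and 258 CPM in WT and 139.9, 135 and 137 CPM in the libraries labelled Recql KO (2.21-fold lower, edgeR adjusted p = 0.0203), and Fdps fell 2.28-fold (edgeR adjusted p = 0.0248). Double KO libraries spanned the WT range and more, at 151, 413 and 188 CPM for Hmgcs1. The number of sterol genes that fell was 22 in a fit on the 6 libraries alone, 5 adjusting for the Y-linked level, 6 leaving out WT replicate 1, 7 leaving out WT replicate 2 or Recql KO replicate 3 and 5 leaving out Recql KO replicate 1 or 2. Of 15 fatty acid genes 9 fell, led by Elovl6, at 129.7, 105 and 98.7 against 35.9, 38.6 and 37.4 CPM, and Scd1, the desaturase gene, at 429.6, 291 and 307 against 141, 128 and 143 CPM (edgeR adjusted p = 0.00906 and 0.00601). That number was 5 adjusting for the Y-linked level, 5 among libraries rich in Y-linked transcripts and 5 leaving out WT replicate 1 or Recql KO replicate 2. Fasn and Acly did not pass (edgeR adjusted p = 0.402 and 0.824). Fdps was not called without WT replicates 1 and 2 or Recql KO replicates 1, 2 and 3 (edgeR adjusted p up to 0.0748). Hmgcs1 was not called without WT replicate 1 or Recql KO replicates 1, 2 and 3 (edgeR adjusted p up to 0.0651).

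Glycolysis and hypoxia genes gave 8 higher and 1 lower of 28. Egln3, an oxygen sensor gene, rose 3.16-fold, and Vegfa 2.02-fold, while the glucose transporter gene Slc2a3 fell 4.31-fold (edgeR adjusted p = 0.00727, 0.00157 and 0.00343). Pkm did not pass (edgeR adjusted p = 0.15). Of 77 cytosolic ribosomal protein genes 16 fell (20.8%, against 15.6% over all genes) and none rose. The changes were small, with a median log2 fold change of -0.24. In 51 all 3 libraries labelled Recql KO lay below all 9 others, where 27.2% of all genes tested lay outside them in either direction. Rps2 stood at 1178, 1239 and 1252 CPM in WT and 846, 873 and 851 CPM in the libraries labelled Recql KO (edgeR adjusted p = 0.00504). The number that fell was 0 among libraries rich in Y-linked transcripts, 9 leaving out WT replicate 1, 7 leaving out WT replicate 2 or Recql KO replicate 3, 5 leaving out WT replicate 3 or Recql KO replicate 1 and 4 leaving out Recql KO replicate 2. Respiratory chain subunits gave 1 higher and 12 lower of 71, and the number lower was 0 among libraries rich in Y-linked transcripts, 7 leaving out WT replicate 2, 5 leaving out WT replicate 3 or Recql KO replicate 2 or 3 and 6 leaving out Recql KO replicate 1. Of 22 ER chaperone genes 12 fell and 2 rose. Hspa5, the BiP gene, stood at 1568, 1633 and 1763 CPM in WT and 1061, 1018 and 913 CPM in the libraries labelled Recql KO, whereas Ern1, the stress sensor IRE1 gene, rose from 13.1, 12.8 and 12.7 to 22.6, 23.6 and 22.4 CPM (edgeR adjusted p = 0.000688 and 0.000153). The number of ER chaperone genes that fell was 0 among libraries rich in Y-linked transcripts. ATF4 targets, 5 higher and 6 lower of 25, held Ddit3 (2.45-fold higher) and Psat1 (1.9-fold lower). The number higher was 3 with no filter on low counts, 3 adjusting for the Y-linked level, 1 among libraries rich in Y-linked transcripts, 3 leaving out WT replicate 1 or 3 or Recql KO replicate 2 and 2 leaving out WT replicate 2 or Recql KO replicate 1 or 3, and the number lower 2 among libraries rich in Y-linked transcripts. Lysosome genes gave 12 higher and 5 lower of 38, with Ctsl, a cathepsin gene, at 533, 525 and 486 against 946, 991 and 1027 CPM. The number of lysosome genes that rose was 6 adjusting for the Y-linked level, 1 among libraries rich in Y-linked transcripts and 7 leaving out Recql KO replicate 1, and that fell 3 with no filter on low counts, 3 in a fit on the 6 libraries alone, 3 adjusting for the Y-linked level, 0 among libraries rich in Y-linked transcripts, 2 leaving out WT replicate 2 or Recql KO replicate 3 and 1 leaving out WT replicate 3 or Recql KO replicate 1 or 2. Among immediate early genes 5 rose and 6 fell of 25, with Dusp4 and Ier3 higher and Fos, Egr2 and Egr3 lower. The number that rose was 1 among libraries rich in Y-linked transcripts, 8 by DESeq2 and 3 leaving out WT replicate 1 or 3 or Recql KO replicate 1, 2 or 3, and that fell 1 among libraries rich in Y-linked transcripts and 3 leaving out WT replicate 3.

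The libraries labelled Recql KO were set against the other genotypes too, so as to see whether the pattern goes with the label alone. Recql KO and double KO share the Recql label and differ in Blm. Between them 3681 genes (24.7%) were called, and between Recql KO and Blm KO 5985 (40.2%), whereas double KO differed from WT in 18 genes (0.121%) and from Blm KO in 291 (1.96%). The comparison of Recql KO with WT shares the Recql KO libraries with the first pair, so their values are given side by side. Eln was 33.8-fold lower than WT and 80.5-fold lower than double KO, H2-K1 9.15-fold and 6.3-fold higher, Mest 99.3-fold and 45.1-fold lower, and Nqo1 4.19-fold and 6.74-fold higher. Prl2c2 was 337-fold higher than WT and 427-fold higher than double KO. Of 36 Hox genes 8 were higher and 0 lower than in double KO, against 15 higher and 7 lower than in WT. For some groups the count depended on the reference. Of 36 mitotic genes 28 were lower than in WT, 13 lower than in double KO and 2 lower than in Blm KO. Of 24 sterol genes the same counts were 11, 6 and 3. Of 24 cartilage genes they were 15, 13 and 15. Of the interferon-stimulated genes 8 were higher than in double KO, against 25 higher than in WT, and double KO replicate 1 stood high on its own, as with Trim30a at 64.5, 3.44 and 2.65 CPM in the 3 double KO libraries.

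Recql KO minus WT and double KO minus Blm KO share no library, and each sets libraries with the Recql label against their reference without it. Across the 14876 genes Pearson's r of the 2 log2 fold changes was 0.232 and Spearman's rho 0.216, where genes are not independent replicates. Over the genes called in Recql KO against WT the median absolute log2 fold change was 0.70 there and 0.22 in double KO against Blm KO. An interaction term, which tests whether the 2 changes differ and was added after the data were seen, was called for 1554 genes (10.4%), including 29 of 36 mitotic genes, 11 of 23 NRF2 targets, 10 of 22 ER chaperones and 1 of 42 interferon-stimulated genes.

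**Figure D4:**
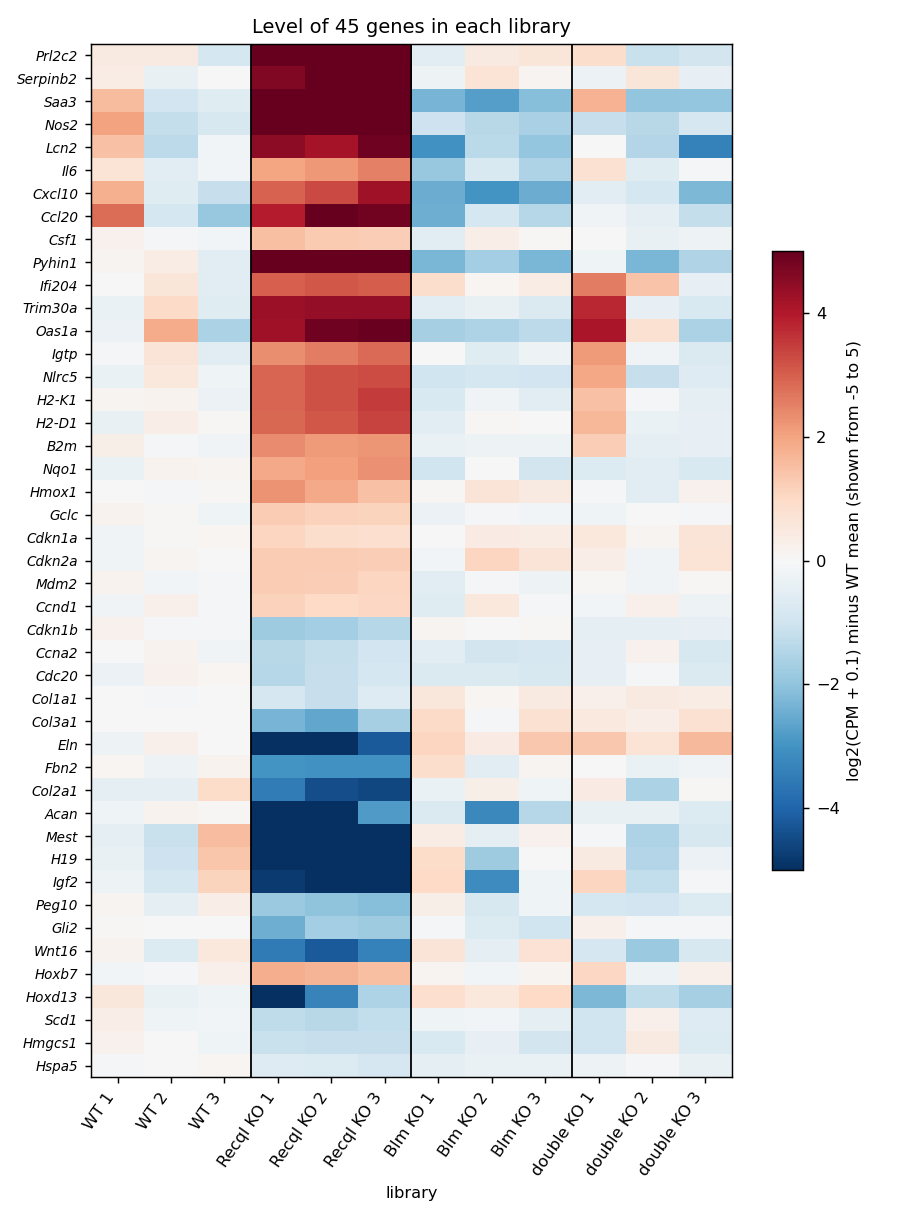
Levels of 45 genes in each of the 12 libraries, as log2(CPM + 0.1) minus the WT mean, with colour from -5 to 5. The 3 libraries labelled Recql KO stand apart from the WT, Blm KO and double KO libraries in most rows, while double KO replicate 1 is raised with them in several interferon genes such as Trim30a and Igtp.

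Genes were placed by chromosome to see whether the calls cluster. On each autosome between 25.2% and 34.1% of tested genes were called, against 29.9% overall. On chromosome X 45 of 512 genes rose and 120 fell, and the median over X was -0.115, -0.153 and -0.117 in the 3 libraries labelled Recql KO (log2 against the WT mean) and -0.0655 to 0.0444 in the other 9. The 3 KO libraries were thus alike on X, although only replicate 1 was high in Y-linked transcripts. On chromosome 8 the median was 0.196 in Recql KO replicate 1, 0.0612 in replicate 2 and 0.00806 in replicate 3. In replicate 1 it was 0.155 to 0.233 in each 25 Mb window, with 71.4% of 577 genes above 0. Other autosomal medians of the 3 libraries lay between -0.0592 and 0.0559. Around Recql, within 2 Mb on chromosome 6, some tested neighbours were called and others were not. Pyroxd1, Ldhb, C2cd5, Pde3a, Plekha5, Kcnj8 and Abcc9 fell and Etnk1 rose. Pyroxd1, whose gene overlaps Recql, stood at 15.9, 12.7 and 14.6 CPM in WT and 9.49, 9.09 and 9.93 CPM in the libraries labelled Recql KO (edgeR adjusted p = 0.00295), and reads in the overlap may be shared by both genes. Kcnj8 and Abcc9, neighbouring potassium channel subunit genes of mural cells, fell 11.8-fold and 19.5-fold (edgeR adjusted p = 0.00239 and 0.000481). Golt1b, also close by, did not pass (edgeR adjusted p = 0.158). The other tested genes of the window, Aebp2, Slco1a5, B230216G23Rik, Cmas, St8sia1 and Sox5, did not pass either (edgeR adjusted p from 0.125 to 0.731). Pde3a was not called without WT replicate 3 or Recql KO replicates 1, 2 and 3 (edgeR adjusted p up to 0.102). Plekha5 was not called without WT replicate 1 or Recql KO replicates 1, 2 and 3 (edgeR adjusted p up to 0.0797).

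**Figure D5:**
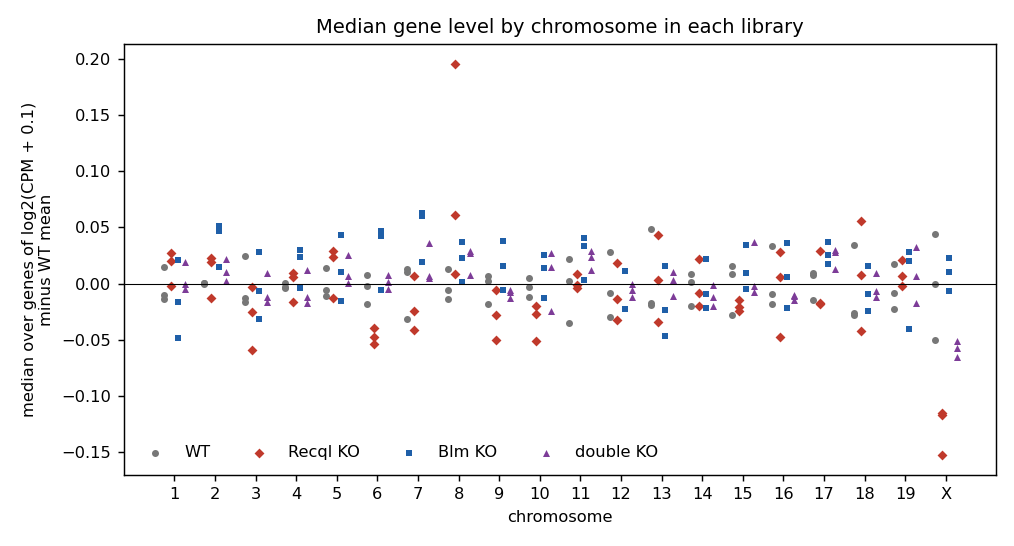
Median over the genes of each chromosome of log2(CPM + 0.1) minus the WT mean, with 1 point for each of the 12 libraries, coloured by genotype. Chromosome 8 is raised in Recql KO replicate 1 (0.196), and chromosome X lies below 0 in all 3 libraries of the label and, less far, in the double KO libraries.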

How the data were processed

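The RNA of 12 cultures, 3 per genotype, was sequenced from stranded, polyadenylated mRNA libraries, per the labels' protocols. The values are expected counts for each gene, in 1 table that the authors deposited. Bowtie2 2.1.0, RSEM 1.2.15 and mm10 are named in the submitters' processing notes. The annotation and the strand setting are not given in the sources used here, so overlapping genes may share reads. Expected counts were rounded to whole numbers, since RSEM splits reads among similar genes. Genes were kept by filterByExpr per genotype (edgeR 4.0.16, R 4.3.3), which left 14876 of 24054. Libraries were scaled by TMM. edgeR's robust quasi-likelihood test was fitted to all 12 libraries with 1 mean per genotype, and p-values were adjusted over all genes tested by Benjamini-Hochberg and called under 0.05. Levels are TMM-scaled CPM. Fold changes are fitted values, and SE is the log2 fold change divided by the root of F. Counting intervals were not used, since 3 libraries per genotype give the spread. On simulated counts over 14578 genes for this comparison, 23.9% of 1.5-fold, 70.1% of 2-fold and 97% of 4-fold changes were called, with 11 false among 138 calls. The changed genes, 66 or 67 per fold, were drawn only from well-counted genes, and all other groups had WT means. Far fewer genes were changed than the 4444 called in the data, so these rates need not hold there.

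Alternatives were RLE scaling, no filter, DESeq2 1.42.0, keeping genes above 1 CPM in 3 libraries, a fit on 6 libraries, the Y-linked level as a covariate (or only libraries above 100 CPM in it), a replicate term and leaving out each library. Genes were named by rule. The first were the 15 largest rises and falls at 5 CPM or more in the higher group. Next came up to 6 called genes per list at 1 CPM or more in that group. Both sets held only genes whose WT and Recql KO libraries did not overlap. The rule added up to 2 uncalled genes per list and the 10 largest rises and falls in CPM. It also added genes within 2 Mb of Recql and the proliferin and plasminogen lists. Ccnb1, G6pdx, Gclm, Sox9, Txnrd1, Xist, the Y-linked genes and muscle markers at 0 fall outside it and were chosen after their values were seen. The members and lists were chosen with earlier results of these data known. Gene positions are from GENCODE M21 and RefSeq, and promoter sequences from RefSeq GRCm38.p6. Some genes that the rule names are not reported here.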

Additional observations from a re-analysis of the deposited data

Results flagged for a closer look

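The change that goes with the Recql label differed between cultures with and without Blm. Recql KO minus WT and double KO minus Blm KO differed in 1554 genes by an interaction term (edgeR adjusted p under 0.05), a test added after the data were seen. The mitotic genes were the list with the largest number of such differences, 29 of 36. The causes were not tested.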

How the results depend on the processing

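The count of 4444 genes called between Recql KO and WT stayed within 1.5 times under RLE scaling (4446), no filter (3910), the stricter filter (4255), the 6-library fit (4599), the Y-linked covariate (3502) and DESeq2 (5225). Among libraries rich in Y-linked transcripts it was 1128, with 529 higher and 599 lower, where fewer libraries entered. Leaving out 1 library gave 2692 to 3715 calls, 1360 to 1812 higher and 1332 to 1903 lower. Against double KO the range was 2157 to 3519 and against Blm KO 4200 to 5767. Deviations of WT and Recql KO libraries of the same number correlated weakly (0.0142, -0.0255 and -0.168), as did those of unlike number (-0.139 to 0.147). Whether the numbers pair the libraries is not given in the labels and cannot be told from these values. With the replicate block 4689 genes were called against WT (2261 higher, 2428 lower), 3893 against double KO and 6159 against Blm KO.

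Of the 162 called genes named, 138 stayed called whichever library was left out. Among libraries rich in Y-linked transcripts 70 of them lost their call, Mest, Igf2, H19, Col2a1, Hspa5, Txnrd1, Il6, Cxcl10 and Mb21d1 included, where 1 library of the label is left. Among all genes named, the direction reversed under these alternatives for Y-linked genes and Xist alone: with the Y-linked covariate the log2 fold change of Ddx3y was 0.0036 and of Uty 0.25, and among libraries rich in Y-linked transcripts it was 0.22 for Ddx3y, 0.28 for Eif2s3y, 0.33 for Uty and -3.48 for Xist. Depth limits genes near 0.05 CPM, where 3 counts decide a level.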

Other observations

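Among the most abundant transcripts, changes went both ways. Lrp1, a large endocytic receptor gene, stood at 866, 1006 and 1012 CPM in WT and 1848, 1784 and 1824 CPM in the libraries labelled Recql KO (1.89-fold, edgeR adjusted p = 0.000937). The groups did not overlap, as in 98.9% of called genes. Sparc, a matricellular glycoprotein gene, fell 1.4-fold, Fstl1 1.44-fold and Nedd4, a ubiquitin ligase gene, 1.37-fold (edgeR adjusted p = 0.00535, 0.0129 and 0.00813). Fstl1 was not called without WT replicate 3 or Recql KO replicates 1 and 2 (edgeR adjusted p up to 0.0586). Double KO libraries stood at 5578, 4812 and 5178 CPM for Sparc, above all 6 libraries of the comparison.

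Low transcripts with large falls included Gucy1a3, a subunit gene of the nitric oxide receptor guanylate cyclase, at 13.1, 11.2 and 21.7 against 0.704, 0.637 and 0.41 CPM, and Clec11a, a secreted growth factor gene of bone, at 8.48, 4.2 and 7.66 against 0.167, 0.207 and 0.635 CPM (edgeR adjusted p = 0.000154 and 0.00106). Frmd5 stood at 8.8, 3.89 and 8.15 against 0.148, 0.172 and 0.41 CPM and the double KO libraries lay between, at 1.87, 1.55 and 2.85 CPM. Rn45s, the ribosomal RNA precursor, whose share can vary with poly(A) selection, stood at 5379, 11678 and 11331 CPM in WT, 3334, 3535 and 4739 CPM in the libraries labelled Recql KO and 2364, 4092 and 3462 CPM in double KO, so that Recql KO and double KO overlapped. Its part in the other results was not tested.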
